A study of Drosophila melanogaster with 2 samples.

Results

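Candidate peaks whose summit lay inside an annotated transposable element numbered 326 of 30000, or 1.09%, in a list of peaks and background called from both replicates pooled. They were chosen by position alone: the summit of each dm6 candidate peak was kept when it fell inside a gene of biotype transposable_element in the Ensembl annotation of the fly genome. Where elements were nested, as at 17 of these summits, the shorter element was counted. The samples were 2 biological replicates, labelled 2 and 3, of 1 group of Drosophila melanogaster embryos aged 0 to 24 h, both sexes mixed, from a transgenic line with a C-terminal GFP on Su(var)2-10. Chromatin sonicated to between 200 and 800 bp was precipitated with an antibody against GFP and sequenced. The tagged protein comes from an inserted copy in 1 line, whole embryos hold all cell types at once, and no untagged line, other genotype or other stage was compared. Only called peaks were analysed here, not reads, so the depth behind each peak is unknown. Such a list includes regions at background level. The authors' filter on the irreproducible discovery rate (IDR) passed 2942 peaks, 9.81% of all 30000 candidates, and these were the candidates of highest pooled signal.

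Su(var)2-10 is the fly's PIAS protein, a ligase that helps to attach the small protein SUMO to its targets, and mutations in its gene weaken the patchy silencing that heterochromatin imposes on genes placed beside it. In the ovary it is needed for silencing of transposable elements guided by piRNAs, small RNAs made from clusters of element remnants, through methylation of lysine 9 of histone H3. Transposable elements fall into classes by how they move. LTR and LINE-like elements copy themselves through RNA, elements with terminal inverted repeats (TIR) and foldback elements move as DNA, and INE-1 is an old, short, non-autonomous relative of Helitrons. Elements crowd the pericentric parts of the chromosome arms and the small chromosome 4, and are sparse along the euchromatic arms.

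The windows below cover 75 bp to each side of a summit and show the sequence under the 5 summits in elements that passed the IDR filter and under the strongest 1360 summit on chromosome 4. Capitals mark bases of the named element and lower case marks flanking sequence, on the plus strand of dm6 (RefSeq Release 6).
Tc1-2{}4132, chr3R:15139509-15139659: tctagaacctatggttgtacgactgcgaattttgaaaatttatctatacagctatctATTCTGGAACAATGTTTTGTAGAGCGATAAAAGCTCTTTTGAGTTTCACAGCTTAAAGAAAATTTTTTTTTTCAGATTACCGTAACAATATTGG
Tc1-2{}4132, chr3R:15139721-15139871: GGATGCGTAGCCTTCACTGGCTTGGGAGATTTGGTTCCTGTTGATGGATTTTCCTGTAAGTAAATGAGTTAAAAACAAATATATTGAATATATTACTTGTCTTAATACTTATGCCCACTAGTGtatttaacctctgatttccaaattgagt
1360{}4718, chr2L:20350034-20350184: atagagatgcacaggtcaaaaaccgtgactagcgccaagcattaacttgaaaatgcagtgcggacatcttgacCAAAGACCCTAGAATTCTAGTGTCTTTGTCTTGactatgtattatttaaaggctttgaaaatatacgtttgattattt
INE-1{}2152, chr3L:21954758-21954908: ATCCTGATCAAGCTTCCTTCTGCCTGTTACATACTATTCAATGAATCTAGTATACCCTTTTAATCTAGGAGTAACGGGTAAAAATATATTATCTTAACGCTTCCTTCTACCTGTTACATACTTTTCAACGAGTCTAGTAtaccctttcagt
INE-1{}4982, chr2L:4030578-4030728: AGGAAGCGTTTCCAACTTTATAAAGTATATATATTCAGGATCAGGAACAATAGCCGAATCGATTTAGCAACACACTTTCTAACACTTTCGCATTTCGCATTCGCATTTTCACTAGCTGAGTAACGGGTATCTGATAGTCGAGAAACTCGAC
1360{}1508, chr4:374052-374202: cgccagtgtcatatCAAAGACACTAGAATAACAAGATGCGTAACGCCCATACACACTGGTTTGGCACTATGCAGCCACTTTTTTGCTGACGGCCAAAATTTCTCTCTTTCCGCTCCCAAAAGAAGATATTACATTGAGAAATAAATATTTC

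Several of these summits lay at or near the border of their element. Both Tc1-2{}4132 windows run across an edge of a copy 278 bp long that held 2 of the 5 filtered summits, and the element supplied 94 and 123 of the 151 bases. The peaks of these 2 summits overlap. The 1360{}4718 window holds 33 bases of element, which is the whole annotated copy. By contrast, every base of the INE-1{}4982 window is element.

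In the euchromatic arms 142 of 28771 candidate summits lay in elements, which is 0.494% (95% Wilson interval 0.419 to 0.581). Elements make up 4.05% of that sequence. When all euchromatic summits were moved along their own arm by 200 evenly spaced circular shifts, 4.04% fell in elements on average, and the shifts ran from 3.64% to 4.52%. The count of 142 compares with 1162 under the shifts, a ratio of 0.122. No shift came down to the observed share, on any arm. On 2L the share was 0.794% against a shifted mean of 4.34%, and on 3L it was 0.283% against 3.73%, the highest and lowest of the 5 arms. The other arms stood between these, with 0.491% on 2R, 0.488% on 3R and 0.439% on X.

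Pericentric parts and chromosome 4 held most of these summits. They carried 84 and 100 of the 326, so 56.4% lay outside the euchromatic arms, where only 4.10% of all candidates lay. In the pericentric parts 14.4% of 583 candidates (11.8 to 17.5) were in elements, which cover 16.8% of the sequence there. On chromosome 4 the share was 15.5% of 645 candidates (12.9 to 18.5), against 25% under shifts along that chromosome, which ran from 19.7% to 30.4%. Within the euchromatic arms the share fell with distance from the pericentric boundary. It was 8.23% of 474 candidates in the first 0.5 Mb, 2.44% of 574 from 0.5 to 1 Mb, 1.76% of 1135 from 1 to 2 Mb, 0.668% of 3893 from 2 to 5 Mb and 0.189% of 22695 farther out.

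How much of an element can be told from its other copies differed along with these shares. A position was called unique when the 50 bases round it occur once in the genome, a rough stand-in for where reads can be placed. Only 15.1% of element sequence was unique in the euchromatic arms, against 98.2% of the other sequence, and the figures were 38.7% against 49.9% in pericentric parts and 57.6% against 96.4% on chromosome 4. Over unique positions alone, the euchromatic share was 0.456% (0.384 to 0.541) against an expected 0.642%, a ratio of 0.71 in place of 0.122. The pericentric share was 13.7% (11.1 to 16.7) against 13.5% with the arms pooled, and that of chromosome 4 was 15% (12.4 to 17.9) against 16.7%. The euchromatic expectation was instead counted arm by arm. Counted that way, the pericentric parts had 78 summits against 88.0 expected, a ratio of 0.886 (exact Poisson interval 0.700 to 1.11). With words of 36 and 100 bases the euchromatic ratio was 0.759 and 0.582. The sources do not say how reads with several possible places were treated, and the part this had in the low euchromatic share was not tested.

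**Figure D1:**
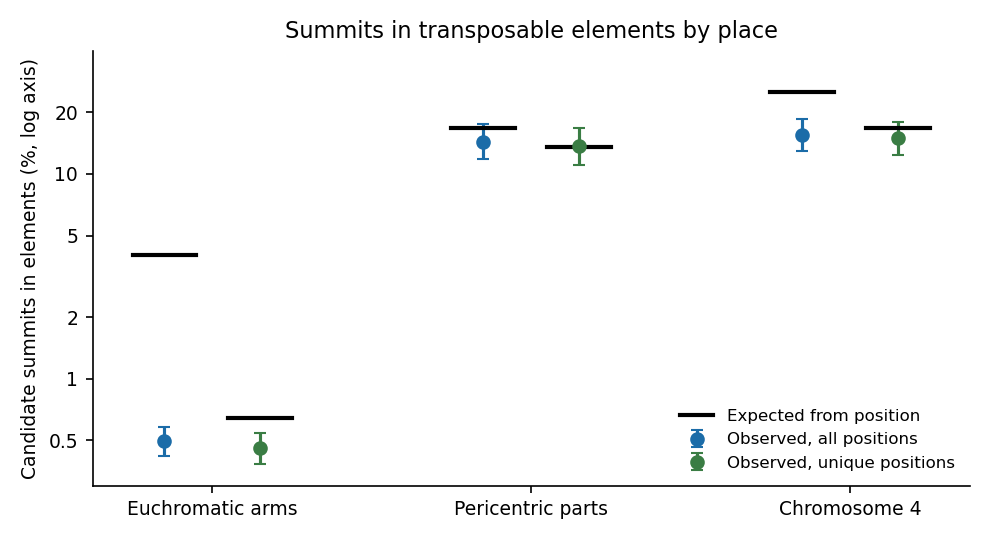
Share of candidate summits in elements (percent, log axis) in 3 kinds of place, over all positions (blue) and over positions with a unique 50-base word (green), with 95% Wilson intervals; black bars give the share expected from shifts or sequence length. In the euchromatic arms the expected share falls from 4.04% to 0.642% when only unique positions are counted, while the observed share stays near 0.5%.

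Over unique positions the share was also set against distance along the arm, and in 3 of 5 bins its interval held the share of unique sequence that is element. From 2 to 5 Mb off the boundary 0.617% of 3888 candidates at unique positions were in elements (0.415 to 0.917), and elements made up 0.654% of unique sequence. In the first 0.5 Mb the values were 8.23% (6.08 to 11.0) and 8.42%, and from 1 to 2 Mb they were 1.5% of 1132 (0.940 to 2.39) and 1.84%. In the other bins the interval lay lower: between 0.5 and 1 Mb, 2.44% (1.46 to 4.05) stood against 8.49%, and beyond 5 Mb 0.163% (0.118 to 0.225) stood against 0.235%.

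The element annotation held 5889 copies on the named chromosomes in 125 families, and 290 of these copies, or 4.92% (4.40 to 5.51), had a candidate summit. Of the 290, 257 had 1 summit, 30 had 2 and 3 had 3. Members came from 46 families, 24 of which gave a single summit. Long copies had few: 0.68% of the 588 euchromatic copies of 3000 bp or longer had a summit, against 9.79% of the 848 copies from 200 to under 1000 bp and 2.67% of the 1199 shorter ones. None of the 837 euchromatic copies with under 10% unique sequence had a summit, which allows a share of up to 0.457% by the Wilson interval. Among euchromatic copies of at least 1000 bp whose sequence was at least 90% unique, 11 of 60 had one, or 18.3% (10.6 to 29.9). That share is per copy and takes no account of length. Per Mb these copies had 125 summits. Copies under 1000 bp that were at least 90% unique had 364.6 per Mb, with a summit in 106 of 1617 (6.56%).

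INE-1 was the main family. It supplied 177 of the 326 summits, 54.3%, from 163 of its 2235 copies (7.29%; 6.29 to 8.45), which have a median length of 146 bp and a median of 100% unique sequence. In the euchromatic arms 89 INE-1 summits stood against 61.2 expected from length. Over unique positions, counted arm by arm, the ratio of observed to expected was 1.40 (exact Poisson interval 1.12 to 1.73) in the euchromatic arms, 2.80 (1.95 to 3.90) in pericentric parts and 1.16 (0.868 to 1.52) on chromosome 4. The intervals for the euchromatic and pericentric parts lay above 1, so INE-1 summits were denser per unique base than candidates over those parts as a whole. Elements other than INE-1 gave ratios of 0.366 (0.267 to 0.489), 0.569 (0.412 to 0.767) and 0.702 (0.508 to 0.946) in the same order.

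The DNA elements with terminal inverted repeats came next, with 74 summits. Most were in 1360, a P-like element studied on chromosome 4 for its link to heterochromatin, which had 41 summits in 30 of 493 copies. Of these 41, 22 were on chromosome 4, 10 in pericentric parts and 9 in the euchromatic arms. At unique positions the 1360 ratio was 1.53 (0.923 to 2.40) on chromosome 4 and 1.24 (0.537 to 2.45) in the euchromatic arms, so neither interval left out 1. HB and S, both Tc1-mariner relatives, had 8 and 5 summits. The foldback element FB had 6, in 6 of 61 copies. The remaining families of at least 50 copies and this kind were hobo, with 4 summits, and pogo, with 1.

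The retroelements were the poorest. LTR elements had 34 summits in 29 of 1468 copies (1.98%; 1.38 to 2.82), with 11 in the euchromatic arms against 784.1 expected from their length there. The median LTR copy is 2015 bp long and 14.9% unique. Over unique positions the euchromatic ratio for LTR elements was 0.165 (0.0712 to 0.325), and 0.609 (0.372 to 0.941) in pericentric parts. LINE-like elements had 35 summits, 16 of them in Cr1a, a family whose copies are 901 bp long and 92.8% unique at the median. Over unique positions LINE-like elements gave 0.287 (0.143 to 0.513) in the euchromatic arms, 0.329 (0.150 to 0.624) in pericentric parts and 0.545 (0.290 to 0.933) on chromosome 4. The single families were uneven: roo, an LTR family of 144 copies with a median length of 8990 bp, had 5 summits, 297 had 6, jockey 3, Doc 2 and Rt1b 1, while F and X, with 87 and 60 copies, had none. gypsy8 and gypsy12 had 3 each.

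**Figure D2:**
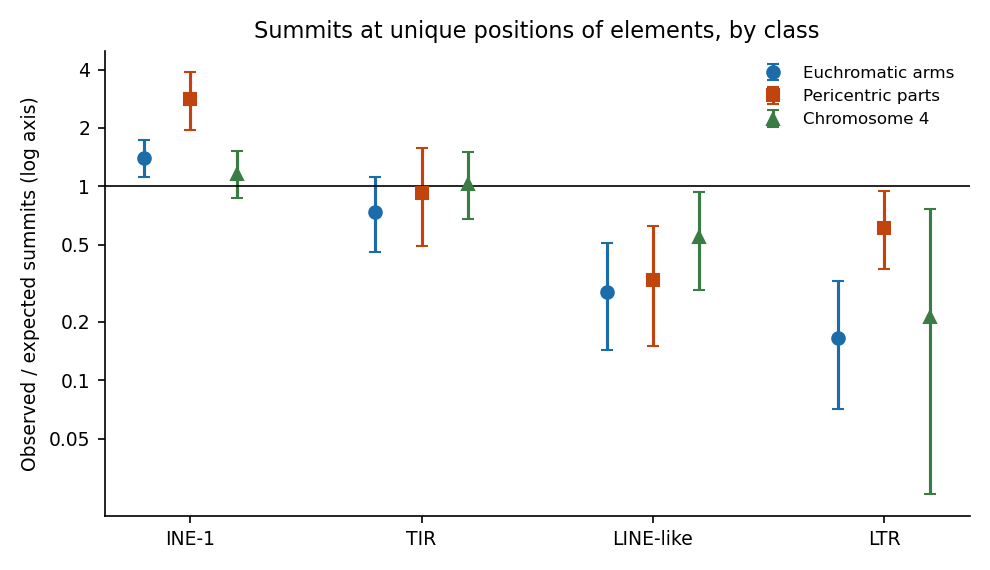
Observed over expected candidate summits at unique positions (log axis) for INE-1 and 3 classes, in the euchromatic arms, the pericentric parts and on chromosome 4; bars are exact Poisson intervals of the count and the line marks 1. INE-1 lies above 1 in the arms (1.40) and the pericentric parts (2.80), and LINE-like and LTR elements lie below 1 in all 3 places.

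Many summits lay near a border of their element, and the elements with a summit were short, with a median length of 427.5 bp. Of the 326, 181 (55.5%) were within 100 bp of an end of their element, and 198 (60.7%) lay in an element shorter than the 536 bp peak itself. The 55.5% was not set against a share expected from element length. At least 50% of the peak was element at 259 of the 326. In the euchromatic arms, density was 192.2 summits per Mb in the outermost 100 bp of elements and 191.9 per Mb in the first 100 bp outside. Deeper in, it was 87.5 per Mb between 101 and 300 bp and 10.5 per Mb (5.26 to 18.9) between 301 and 1000 bp, where the whole of the euchromatic arms had 250.8. Over unique positions the corresponding densities inside were 281 (221 to 352), 248 (175 to 340) and 79.9 (38.3 to 147), against 264 for the arms. The last of these rests on 10 summits in 0.125 Mb. Outside, over unique positions, there were 201 summits per Mb (163 to 245) in the first 100 bp, 232 (201 to 266) from 101 to 300 bp and 252 (234 to 271) from 301 to 1000 bp, and the first of these intervals lies below 264.

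**Figure D3:**
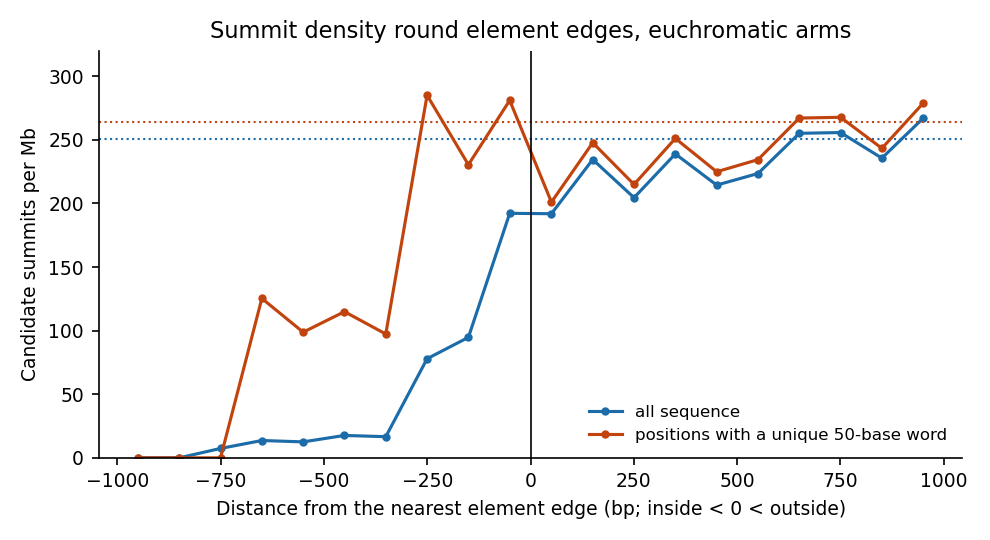
Candidate summits per Mb in 100 bp steps of distance from the nearest element edge in the euchromatic arms, inside elements (below 0) and outside, for all sequence (blue) and for positions with a unique 50-base word (red); dotted lines give the mean of the arms. Density inside falls away from the edge in both curves, and inside, within 300 bp of the edge, the red points lie between 230.4 and 285, on both sides of the mean of 264.

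The pooled signal is the authors' own score and ranks peaks within a list. Over the 326 summits its median was 47.1, with quartiles of 39.5 and 60.4, against 51.0, 41.0 and 73.6 over all candidates. The highest was 227.5, at rank 1064, where the list's highest was 2409. Chromosome 4 summits had the highest median, 53.6, and the pericentric ones the lowest, 41.1, with 46.7 in the euchromatic arms. Candidates outside elements had medians of 52.58, 45.46 and 51.15 in the same order of places. INE-1 summits had a median of 50.9, TIR summits 44, LINE-like summits 45.9 and LTR summits 40.5, and these ranges overlap widely.

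Only 5 of the 326 passed the IDR filter, 1.53% (0.657 to 3.54) against 9.90% of the 29674 candidates outside elements, a difference of -8.36 percentage points (Newcombe interval -9.31 to -6.33). All 5 were in the euchromatic arms, where the shares were 3.52% and 10.1% (difference -6.57; -8.61 to -2.10). In pericentric parts it was 0 of 84 against 28 of 499 outside elements, and on chromosome 4 it was 0 of 100 against 21 of 545. The chromosome 4 difference of -3.85 points has an interval that reaches 0.0744. At a q-value under 0.05, which 11.7% of all candidates met, the count was 10 of 326, or 3.07%. These intervals treat peaks as independent and cover counting error only, although neighbouring peaks can overlap. Of the 326 peaks, 187 (57.4%) overlapped no other candidate, against 57.7% outside elements. With only the strongest peak of each overlapping group kept, 4 of 254 passed the filter.

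**Figure D4:**
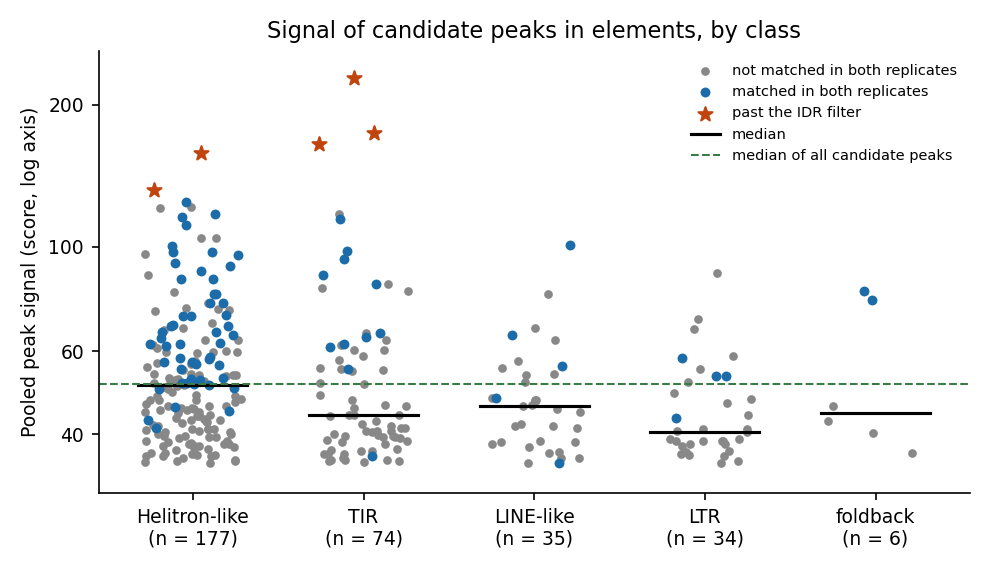
Pooled peak signal (score, log axis) of each of the 326 summits by element class; stars passed the IDR filter, blue points had a summit within 100 bp in both replicates, black bars are class medians and the dashed line is the median of all candidates, 51.0. The 5 stars are 3 TIR and 2 INE-1 summits, and the medians of 4 classes lie below the dashed line while that of the Helitron-like class is close to it.

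Replicate support followed rank. A summit within 100 bp was present in both replicate lists for 78 of the 326, 23.9% (19.6 to 28.8), against 33.5% of all candidates and 33.6% of those outside elements, a difference of -9.70 points (-14.1 to -4.76). The share was 30.5% of the 177 INE-1 summits. For the 149 summits in other elements, 24 were matched in both, a difference of -17.5 points (-22.6 to -10.7). In the euchromatic arms the share over all elements was 23.9% against 33.8% (-9.87 points, -16.2 to -2.21). In pericentric parts it was 17.9% against 27.1% (-9.20, -17.1 to 1.04) and on chromosome 4 it was 29 of 100 against 29.9% (-0.908, -9.83 to 9.32), with 0 inside both intervals. Among candidates of like rank the shares were close. At ranks 2943 to 10000, 56.7% of 67 summits in elements (44.8 to 67.9) and 62.9% of 6991 others were matched in both, at ranks 10001 to 20000 it was 25.4% of 122 and 26.5%, and at ranks 20001 to 30000 it was 3.79% of 132 and 3.54%. The share matched in neither replicate was 14.1%, against 12.8% outside elements.

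**Figure D5:**
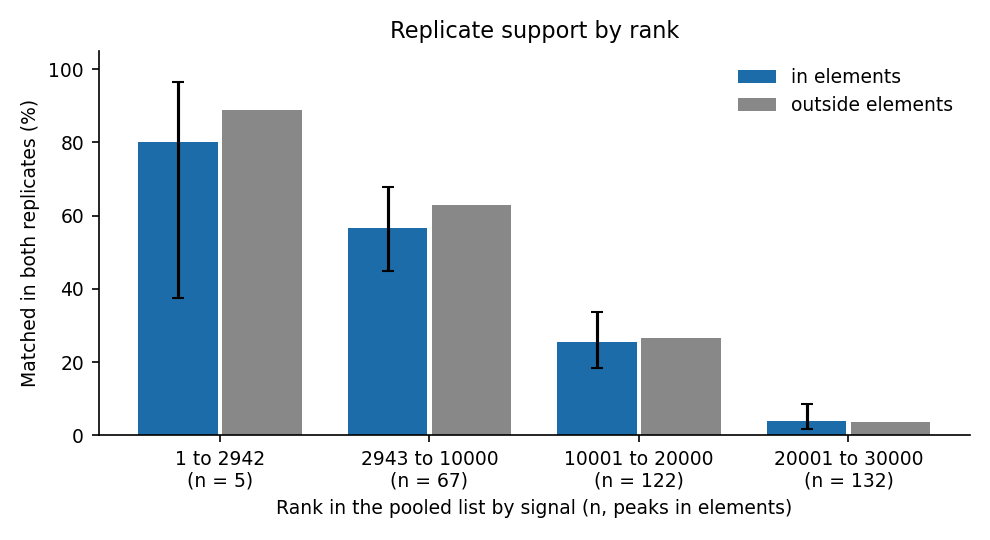
Percent of candidate peaks with a summit within 100 bp in both replicate lists, by rank in the pooled list, for peaks in elements (blue, 95% Wilson intervals) and outside them (grey). Both fall from at least 80% among ranks 1 to 2942 to under 4% at ranks 20001 to 30000. The first blue bar is 4 of only 5 peaks (interval 37.55 to 96.38).

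The replicates differed in how many of their own candidates lay in elements. Replicate 2 had 399 of 30000, or 1.33%, and replicate 3 had 256, or 0.853%, a difference of 0.477 points (0.311 to 0.644). The same direction held in the euchromatic arms, with 0.595% and 0.415% (difference 0.18 points, 0.0642 to 0.298), and in pericentric parts, with 16.9% of 769 and 12% of 491 (4.89 points, 0.858 to 8.71). On chromosome 4 the shares were 15.3% and 13.2%, and the interval of that difference ran from -1.92 to 5.92 points. Among the best 2942 candidates of each replicate the counts were 8 and 7. Accordingly 118 of the 326 pooled summits were matched in replicate 2 alone (36.2%, against 25.2% outside elements; difference 11.0, 5.91 to 16.3) and 84 in replicate 3 alone (25.8% against 28.4%). Depth and control of each replicate are unknown, and their part in this difference was not tested.

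Tc1-2{}4132, a 278 bp Tc1-mariner copy at 3R:15139566-15139843, carried the strongest summit. Its pooled signal was 227.5, with 120.7 in replicate 2 and 111.2 in replicate 3, so both replicates ranked it high, at 969 and 1255. The other summit of the same copy had 164.7 pooled, 88.9 in replicate 2 and 91.4 in replicate 3. The copy is intergenic and the nearest protein-coding start site, of CG3987, was 374 and 162 bp away from the 2 summits.

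INE-1{}2152, a 374 bp copy on 3L, had a pooled signal of 157.6, with 76.8 in replicate 2 and 79.0 in replicate 3. It lies 277 bp from the start of CG7458. INE-1{}4982 on 2L, 724 bp from the start of ed, which encodes the cell adhesion molecule Echinoid, had 132.0 pooled, 67.0 in replicate 2 and 46.9 in replicate 3. Its ranks in the replicates were 2684 and 6546, so it stood among the best 2942 of replicate 2 and not of replicate 3. The fifth filtered summit fell in the 33 bp copy 1360{}4718 on 2L, 97 bp from the start of La, which encodes an RNA-binding protein. Its pooled signal was 174.1 and element made up 6.16% of the peak. No replicate summit lay within 100 bp of it: the nearest were 171 bp away in replicate 2, with a signal of 75.1, and 140 bp away in replicate 3, with 106.9.

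The rest of the 20 strongest did not pass the filter, whose weakest peak had a pooled signal of 128.9. Replicates were uneven at several. INE-1{}3661 on 3R, 474 bp from the start of CG9776, had 124.2 pooled, 64.6 in replicate 2 and 21.1 in replicate 3, near the floor of that list. INE-1{}6202 on 2L, in an exon and within the spans of both CG17768 and LSm-4, had 120.8 pooled and 100.4 in replicate 3. The nearest summit of replicate 2, with 37.7, lay 133 bp off. INE-1{}5101 on 3R had 115.5, 35.2 and 81.7 in the same order as pooled, replicate 2 and replicate 3. INE-1{}5812, in an intron of Dmtn, was even, with 111.3, 54.7 and 59.8. INE-1{}3547 on X, 249 bp from the start of the nuclear transport gene Ranbp16, had 104.1 pooled and 48.1 in replicate 3, and the nearest summit of replicate 2, with 47.6, lay 107 bp off. jockey{}1450, a LINE-like copy 443 bp from the start of the calnexin gene Cnx99A, had 100.8, 53.4 and 48.2, and 35.0% of its summit window was unique. INE-1{}2999, 347 bp from the start of the mitochondrial ribosomal protein gene mRpS25, had 97.3, 43.6 and 55.2.

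On chromosome 4 the strongest summits were in INE-1 and 1360 copies. 1360{}1508, a 681 bp copy in an exon of the host cell factor gene Hcf, had 117.3 pooled and 58.4 in replicate 2, and the nearest summit of replicate 3, with 55.7, lay 220 bp off. The 2897 bp copy 1360{}1617 near Arl4 had 114.5, 59.2 and 52.3, and its peak was wholly element. INE-1{}5954, 1283 bp from the start of the homeodomain gene zfh2, had 104.1 pooled and 52.1 in replicate 3, while the nearest in replicate 2 had 59.6 at 196 bp. 1360{}1546, 2672 bp from the start of the translational repressor gene 4E-T, had 97.7 pooled, 24.2 in replicate 2 and 57.2 in replicate 3. Also among the 20 strongest was INE-1{}3380, in an intron of CG11076 and 206 bp from the start of the ATP synthase gene ATPsynbeta, with 97.5, 60.2 and 39.2. Both replicates had a summit within 100 bp at 3 of these 5.

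In the pericentric parts INE-1{}2912, in an intron of the SOCS-box gene gus on 2R, was strongest, with 121.3 pooled and 66.2 in replicate 2; the nearest summit of replicate 3, with 54.0, lay 118 bp off. INE-1{}6123 on 2L, in an intron of CG42748, had 100.2, 36.9 and 57.5. 297{}2824, an LTR copy of 3342 bp whose end overlaps an exon of CG12547, had 87.7 pooled and 69.2 in replicate 3, with the nearest of replicate 2 at 189 bp and 75.5, and was the strongest of its family. 1360{}3653, 794 bp from the start of the catenin gene p120ctn, had 87.1, 33.2 and 41.1. INE-1{}4532, in an intron of the acetylcholine receptor gene nAChRalpha4, had 79.4, 37.1 and 46.1. Their pooled signals all lay below the 128.9 of the weakest filtered peak.

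The remaining families with at least 5 summits were weaker. The strongest S summit, S{}2327 in an intron of CG16890, had 80.6 pooled and 67.1 in replicate 2, with the nearest of replicate 3 at 208 bp and 46.2. FB{}5382, in an intron of CG33941 on chromosome 4, had 80.5, 40.2 and 26.8, and HB{}4796, in an intron of the ankyrin gene Ank, had 65.6, 28.8 and 35.0. The strongest roo summit, roo{}995 in an intron of the Wnt receptor gene fz, had 58.5 and no summit within 100 bp in either replicate, and none of its summit window was unique. Cr1a{}5031 had 57.1 pooled and 46.5 in replicate 3, with the nearest of replicate 2 at 228 bp and 20.5.

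Genes lay round about many of these summits. In all, 188 of the 326 were inside a protein-coding gene, in 124 genes: 161 in introns (49.4%, against 50.5% outside elements) and 27 in exons (8.28% against 21.5%; difference -13.2 points, -15.8 to -9.67). A protein-coding start site lay within 500 bp of 36, 11.0% (8.08 to 14.9), against 20.5% of all candidates. That difference was not seen in the euchromatic arms, where 19.7% of summits in elements and 20.6% of the others were that near (difference -0.834 points, -6.56 to 6.48). In pericentric parts it was 7.14% against 26.7% (-19.5; -25.1 to -11.1) and on chromosome 4 it was 2 of 100 against 17.2% (-15.3; -18.9 to -9.45). The median distance to the nearest start site was 1761 bp in the euchromatic arms, 3390 bp in pericentric parts and 4092 bp on chromosome 4.

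The 2 best known sources of piRNAs held few candidates. The flamenco locus, 158.8 kb on X of which 69.1% is element and 27.5% is unique, had 2 candidate summits, 1 of them in an element. That was INE-1{}2044, near 1 end of the locus, with 56.8 pooled, 27.6 in replicate 2 and 26.3 in replicate 3. The 246.7 kb between Pld and jing, which hold cluster 42AB, are 72.0% element and 36.5% unique and had 4 candidates, none in an element. The densities were 12.6 and 16.2 candidates per Mb, against 250.8 over the euchromatic arms. Of 64 annotated copies of the telomeric elements HeT-A, HeT-Tag and TART, 1 had a summit, where 4.92% of all annotated copies had one. These 64 copies have a median length of 71 bp, and the 23 HeT-Tag copies among them one of 17 bp. The copy with a summit was TART-A{}4601 on chromosome 4, with 55.2 pooled and 32.7 in replicate 2, and no summit of replicate 3 within 100 bp.

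Base composition was ordinary. The median GC content of the 200 bp round the summit was 36%, against 38% for all candidates and also 38% for 24170 windows tiled over euchromatic elements. Exact matches of 8 short sequences were counted on both strands of these windows, and none of the 8 contains another. A match is only a string of letters and does not show that a factor was bound. TATCGATA, the core of the element bound by DREF, a promoter factor, was in 8.59% (6.01 to 12.1) of the 326 windows, against 1.10% of all candidates and 0.559% of element tiles. Of these 28 windows, 27 were in INE-1. The tiles are not matched to the 326 windows by family or place. They follow length, by which LTR elements would hold 784.1 euchromatic summits and INE-1 61.2, whereas they held 11 and 89. The part of family make-up in the differences from tiles was not tested. TTCNNNGAA, the letters of a STAT92E site, was in 10.7% (7.82 to 14.6) against 5.81% of all candidates and 8.49% of tiles, and a run of 8 A was in 21.2% against 14% and 6.66%. Of the 35 windows with TTCNNNGAA, 26 were in INE-1. CACACA and TGCATA were less frequent than over all candidates, at 9.82% against 17.3% and 7.67% against 14%, and both were near or under the tile shares of 8.64% and 11.2%. GAGAG, the letters bound by GAGA factor, was in 24.5% against 21.5%, CAGGTAG, a Zelda site, in 2.76% against 0.987%, and GGTCACACT, a core promoter sequence, in none of 326 against 0.42%. Of the 9 windows with CAGGTAG, 8 were in INE-1.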

How the data were processed

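Chromatin immunoprecipitation of Su(var)2-10-GFP was sequenced in 2 replicates of 1 group. Per the notes the authors deposited beside the lists, peaks and background were called on dm6 for each replicate and for both pooled, against a control. No source used here gives the aligner, the peak caller, the IDR threshold or the handling of repeated reads. The signal value is the authors' deposited score, which has no unit and was compared only within a list. Deposited −log10 q values gave q-values. Lists on dm3 were not used.

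Elements, genes and start sites were those of Ensembl release 115 (BDGP6.54). The sequence was RefSeq Release 6, whose arm lengths all reach the highest peak ends. Pericentric parts began at 22 Mb on 2L, 22.9 Mb on 3L and 22.4 Mb on X, and ended at 5.7 Mb on 2R and 4.2 Mb on 3R. Uniqueness used words of 50 bases counted on both strands of the assembly. Shares have 95% Wilson, differences Newcombe and ratios exact Poisson intervals, with no p-value. The shift, matching and word code was tested on simulated data. Python 3.11.15, numpy 2.4.6, pandas 2.3.3 and scipy 1.17.1 were used.

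The members, motifs and tests were chosen with earlier results of these data known. Elements were named if past the IDR filter, among the 20 strongest, the 5 strongest in pericentric parts, on chromosome 4 or within 500 bp of a start site, the strongest of a family with at least 5 members, in flam, between Pld and jing, or telomeric. Families were named with at least 5 members or 50 copies. Sequences shown are of strong members off 1 chromosome arm. 1 element that met this rule is not reported here.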

Additional observations from a re-analysis of the deposited data

How the results depend on the processing

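The euchromatic share of 0.494% stayed below its expectation under every alternative run, whose ratios to expectation ran from 0.0433 to 0.759. It was 0.358% with at least 50% of the peak in elements, 0.204% at a q-value under 0.05, 0.173% past the IDR filter, 0.637% and 0.364% with boundaries moved 500 kb towards and away from the centromere, 0.184% without INE-1, and 0.415% to 0.595% from a single replicate. The pericentric share of 14.4% became 2.70% (1 of 37) at a q-value under 0.05, 0% (0 of 28) past the filter, 11.6% with boundaries moved away and 8.41% without INE-1. The cause of these moves was not tested. The difference in nearness to start sites fell to -0.834 points in the euchromatic arms alone. Copies with a summit were 12.4% of all when a margin of 250 bp was allowed, and 4.02% to 6.22% from a single replicate. The lower shares past the filter and matched in both replicates kept their direction in the euchromatic arms alone, without chromosome 4 and without INE-1. Those intervals lay below 0, as did those for match distances of 50 and 250 bp over all places. In the euchromatic arms alone the match difference was -5.09 points (-10.4 to 1.94) at 50 bp and -5.52 (-13.5 to 2.71) at 250 bp. Both of these intervals hold 0. Intervals reached past 0 on chromosome 4, to 0.0744 points for the filter and 9.32 for the match, and in pericentric parts to 1.04 for the match. All 8 motif differences kept their direction with 100 bp windows. Word lengths, chromosome 4 and the 200 bp minimum were alternatives chosen after seeing the data. No paired analysis was possible because the samples form 1 group.

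Limits are the unknown depth, control and read length, the inclusion of background in the lists, and an annotation of the reference strain, whose element copies were not compared with those of the tagged line. A 50-base word is unique or not in the assembly alone, which lacks much heterochromatin. Peaks of 536 bp cannot place a protein inside or beside a short copy. Intervals cover counting error only.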

Other observations

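INE-1 copies with a summit were compared with INE-1 copies without one, a comparison chosen after the values above were seen. Over all copies, 27.6% of the 163 with a summit held TATCGATA and 14.4% of the 2072 without (difference 13.2 points, Newcombe interval 6.69 to 20.6), but the copies with a summit were also longer, with a median of 331 bp against 138 bp. Among copies of 200 to under 1000 bp the shares were 32% of 103 and 26.4% of 761 (5.63; -3.22 to 15.6). Within that length the euchromatic shares were 26.8% and 25.7%, and on chromosome 4 they were 45.2% of 31 and 23.0% of 113 (22.1; 4.00 to 40.5). TTCNNNGAA was in 39.8% and 32.7% of copies of that length (7.09; -2.47 to 17.3). TGCATA was in 15.5% and 9.46% of copies of that length (6.07; -0.107 to 14.5), an interval that holds 0. By place, TGCATA was in 21.4% of 56 and 7.51% of 373 euchromatic copies (13.9; 4.66 to 26.5), in 9.68% and 9.73% on chromosome 4, and in 6.25% of 16 and 12% of 275 in pericentric parts (-5.75; -12.5 to 16.6), where TATCGATA was in 25% and 28.7% (-3.73; -19.6 to 21.3). With 8 sequences and 3 places compared, an interval can miss 0 by counting error alone. Whether any of these did so was not tested.

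Distance to genes was compared in the same copies. Among copies of 200 to under 1000 bp the midpoint lay at most 500 bp from the start of a protein-coding gene in 14.6% of those with a summit and 7.10% of those without (7.47; 1.57 to 15.7), and in the euchromatic arms alone in 21.4% and 12.3% (9.10; -0.389 to 21.8). In pericentric parts it was 12.5% (2 of 16) and 1.82% (5 of 275), a difference of 10.7 (1.37 to 34.2) that rests on few copies. On chromosome 4 it was 3.23% (1 of 31) and 2.65% (3 of 113), with a difference of 0.571 (-4.97 to 13.7). The median distance was 1655 bp with and 2454 bp without in the arms, 2076 and 8208 bp in pericentric parts, and 4349 and 4235 bp on chromosome 4.

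Some genes held several summits in elements; they are named for this count, which was seen first. Ank, Hcf, gus and nAChRalpha4 each held 5, and d4 and pan 4. These counts include overlapping peaks in the same copy, as in 1360{}1508 and 1360{}6069 in Hcf, INE-1{}2912 in gus and INE-1{}2485 in d4. In Hcf all 5 were in 1360 copies, out of 10 candidates in the gene, of which 24.3% is element. In gus, of which 33.7% is element, all 5 were in INE-1, out of 10 candidates, with pooled signals from 49.9 to 121.3. In Ank they were in 1360, G5, HB and INE-1, out of 13 candidates (38.5%, where 36.3% of the gene is element), and 3 of the 5 were matched in both replicates. In pan, the fly TCF gene, the 4 were in INE-1, out of 30 candidates (13.3%, where 18.9% of the gene is element). Those 4 were overlapping pairs of peaks in the copies INE-1{}4169 and INE-1{}4170. d4, of which 56.5% is element, had 4 of its 7 candidates in elements and none was matched in both replicates.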
